A study of Mus musculus with 40 samples.

Results

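The neuronal immediate early genes described here are *Fos*, *Fosb*, *Junb*, *Egr1*, *Egr2*, *Egr4*, *Npas4*, *Nr4a1*, *Arc* and *Dusp1*, which were taken by name and make up 10 of the 43346 genes counted in mouse cortex. All 10 passed the filter on low counts, which asked for 10 counts or more in 4 or more of the 40 libraries and left 21253 genes to test. Immediate early genes are transcribed soon after a stimulus without new protein synthesis, mostly through CREB, serum response factor and MEF2 that are already bound or waiting in the cell. In cortical neurons, calcium entry through synaptic receptors and voltage-gated channels is the best known trigger, so their transcripts are widely read as a record of recent activity, and their messenger RNAs decay fast. The induced proteins are mainly transcription factors that act on later genes, beside an effector at the synapse and a phosphatase that ends the kinase signal.

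The libraries came from mice carrying *Trem2* H157Y, a histidine to tyrosine change knocked into the microglial receptor gene, and from their littermates. Homozygous mice (Hom, *Trem2* H157Y/H157Y) were compared with wild-type littermates (WT, *Trem2* +/+) in a non-amyloid cohort aged 6 months and in an amyloid cohort aged 8.5 months, in which every mouse was also hemizygous for 5xFAD, a set of mutant human transgenes of familial Alzheimer's disease driven by the neuronal *Thy1* promoter. Each of the 4 groups held 10 mice, 5 females and 5 males, each sequenced as 1 library and numbered from 1 to 40 over the whole series. The knock-in was made in B6/CBA F1 zygotes, and mice were anesthetized with isoflurane, bled and perfused before the cortex was frozen. Age and transgenes differed together between the cohorts and cannot be told apart.

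Libraries held from 41646271 to 105903846 counts in genes, and no pair of libraries within a group differed as little as sampling noise allows. One library stood apart, amyloid Hom replicate 19, a female with the lowest total. There, 0.616% of counts (95% Wilson interval 0.613 to 0.618, counting error only) fell on 488 genes that lie mostly under a far more abundant gene of the other strand, against 0.0144% to 0.0191% in the other 39 libraries. No member shares its span with another gene in the authors' table. The study's methods left out 1 amyloid Hom female for a low share of reads in genes and a failed strand check, without naming it. Replicate 19 has that group and sex and stands apart in the same kind of measure, so the fits here, which keep all 40 libraries, probably include the library that was removed. Values without replicate 19 are given beside the member results it enters. *Trem2* itself differed by -0.87 in log2 (SE 0.21, adjusted p = 0.0763 by edgeR, and -0.90 with adjusted p = 0.0987 without replicate 19) between Hom and WT in the amyloid cohort and by -0.04 (adjusted p = 0.981) in the other, and gene counts do not show the edited base. The study did call *Trem2* lower in its amyloid Hom mice, and reported the same direction by quantitative PCR. The 5 neuron markers summed to 5101 to 7199 CPM (counts scaled by library size) in every library, and none of them was at 0 in any group.

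The bases before the start sites are printed for 6 members, picked because their windows showed the clearest matches. Whether shared promoter letters have a part in how the members vary from mouse to mouse was not tested. RefSeq promoter windows (GRCm38.p6, 250 bases before to 50 after a start) were found for 8 of the 10 members, and not for *Egr1* and *Arc*. Capitals mark TGACG or its reverse complement CGTCA, the core of the CREB-binding element (CRE), and in *Egr2* also a CArG box, the element that serum response factor binds.
Fos, chr12:85473640-85473889, plus strand, the 250 bases before the start: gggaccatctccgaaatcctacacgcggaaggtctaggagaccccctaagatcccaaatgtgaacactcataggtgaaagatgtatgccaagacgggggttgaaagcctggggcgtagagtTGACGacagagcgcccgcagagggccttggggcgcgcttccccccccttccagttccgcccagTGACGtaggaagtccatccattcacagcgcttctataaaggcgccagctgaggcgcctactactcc
Nr4a1, chr15:101266596-101266845, plus strand, the 250 bases before the start: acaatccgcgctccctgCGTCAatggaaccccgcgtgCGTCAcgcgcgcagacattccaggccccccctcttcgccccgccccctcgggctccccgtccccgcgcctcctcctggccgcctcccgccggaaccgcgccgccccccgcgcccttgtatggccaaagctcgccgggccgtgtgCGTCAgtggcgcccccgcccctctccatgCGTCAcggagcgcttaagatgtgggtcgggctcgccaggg
Egr4, chr6:85513590-85513839, minus strand, the 250 bases before the start: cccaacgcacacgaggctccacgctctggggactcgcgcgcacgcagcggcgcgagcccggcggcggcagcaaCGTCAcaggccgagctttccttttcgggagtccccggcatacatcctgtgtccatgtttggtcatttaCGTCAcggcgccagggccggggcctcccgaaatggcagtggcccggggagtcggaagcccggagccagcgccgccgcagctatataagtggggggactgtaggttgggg
Dusp1, chr17:26508520-26508722, minus strand, 203 bases that end before its annotated exon: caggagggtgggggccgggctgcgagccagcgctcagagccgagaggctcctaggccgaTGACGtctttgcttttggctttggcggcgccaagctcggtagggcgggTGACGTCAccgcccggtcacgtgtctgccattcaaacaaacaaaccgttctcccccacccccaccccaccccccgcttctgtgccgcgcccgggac
Npas4, chr19:4990131-4990155, minus strand, the 25 bases around its pair of cores, upstream of the RefSeq start but inside an exon of a longer GENCODE transcript: ttcgaCGTCAcgggaTGACGtcgga
Egr2, chr10:67537793-67537822, plus strand, the 30 bases around its CArG box: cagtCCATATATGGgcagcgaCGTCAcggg

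All 8 members with a window held the CRE core on either strand, against 23% of the 27025 genes with a window. Counted by window, 10 of the members' 12 windows held it, against 20.8% of the 32851 windows. The *Nr4a1* window held 4 cores, and the *Fos*, *Egr4* and *Npas4* windows held 2 each. The full CRE, TGACGTCA, which contains the core on both strands, was in the *Dusp1* window alone among the members and in 2.03% of all genes. A CArG box was found in *Egr2* alone, in 4 of its 5 overlapping or neighbouring windows, and in 1.81% of all genes. The TATA box TATAAA was in *Fos* and *Junb* (15.7% of all genes), the EGR site GCGNGGGCG in *Fosb* and *Nr4a1* (6.27% of all genes), and the AP-1 site TGANTCA, which Fos and Jun proteins bind, in none of the 8 (8.97% of all genes). All motifs were searched on both strands over the 300 bases, and a match is a run of letters, not a measured site. Among other induced genes with a window, 12 of 21 rapid primary response genes, 11 of 13 delayed and synaptic ones and 3 of 8 glucocorticoid-induced ones held the core. It was also in 5 of 15 genes that signal to the immediate early genes and in 2 of 6 constitutively expressed transcription factors.

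The members lie on 9 chromosomes (mm10 coordinates of the authors' table). *Fos* is at chr12:85473890-85477273, *Fosb* at chr7:19302721-19310045, *Junb* at chr8:84976909-84978748, *Egr1* at chr18:34859823-34864984, *Egr2* at chr10:67535475-67542188 and *Egr4* at chr6:85511131-85513589. *Npas4* is at chr19:4984355-4989971, *Nr4a1* and *Arc* share chromosome 15 at chr15:101266846-101274792 and chr15:74669083-74672570, and *Dusp1* is at chr17:26505590-26508519, on the chromosome of *Trem2* but 21.8 Mb from it.

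Levels per kilobase of transcript, in CPM per kb over the 40 mice, put *Egr1* highest with a median of 46.5, above *Arc* in 29 mice. *Arc* followed with 32.6 and *Nr4a1* with 25, and *Nr4a1* stood above *Dusp1* in all 40 mice. *Dusp1* (11) and *Fos* (10.5) had nearly the same median but *Dusp1* was the higher in 34 mice. Below them came *Npas4* at 6.43, *Junb* at 3.84, *Fosb* at 2.72, *Egr2* at 2.65 and *Egr4* at 1.97 CPM per kb. *Fosb* and *Egr2* could not be ordered, since each was the higher in 20 of 40 mice.

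Mice of the same group differed widely. The SD of log2 CPM within groups ran from 0.53 for *Fosb* to 1.04 for *Egr2*, whereas the median gene among 15198 with a mean of at least 1 CPM had 0.19. Every member lay at or above the 96.6th percentile of that spread. In *Fos*, non-amyloid Hom mice ran from 3.13 CPM in replicate 6 to 43.0 CPM in replicate 37, both females.

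**Figure D1:**
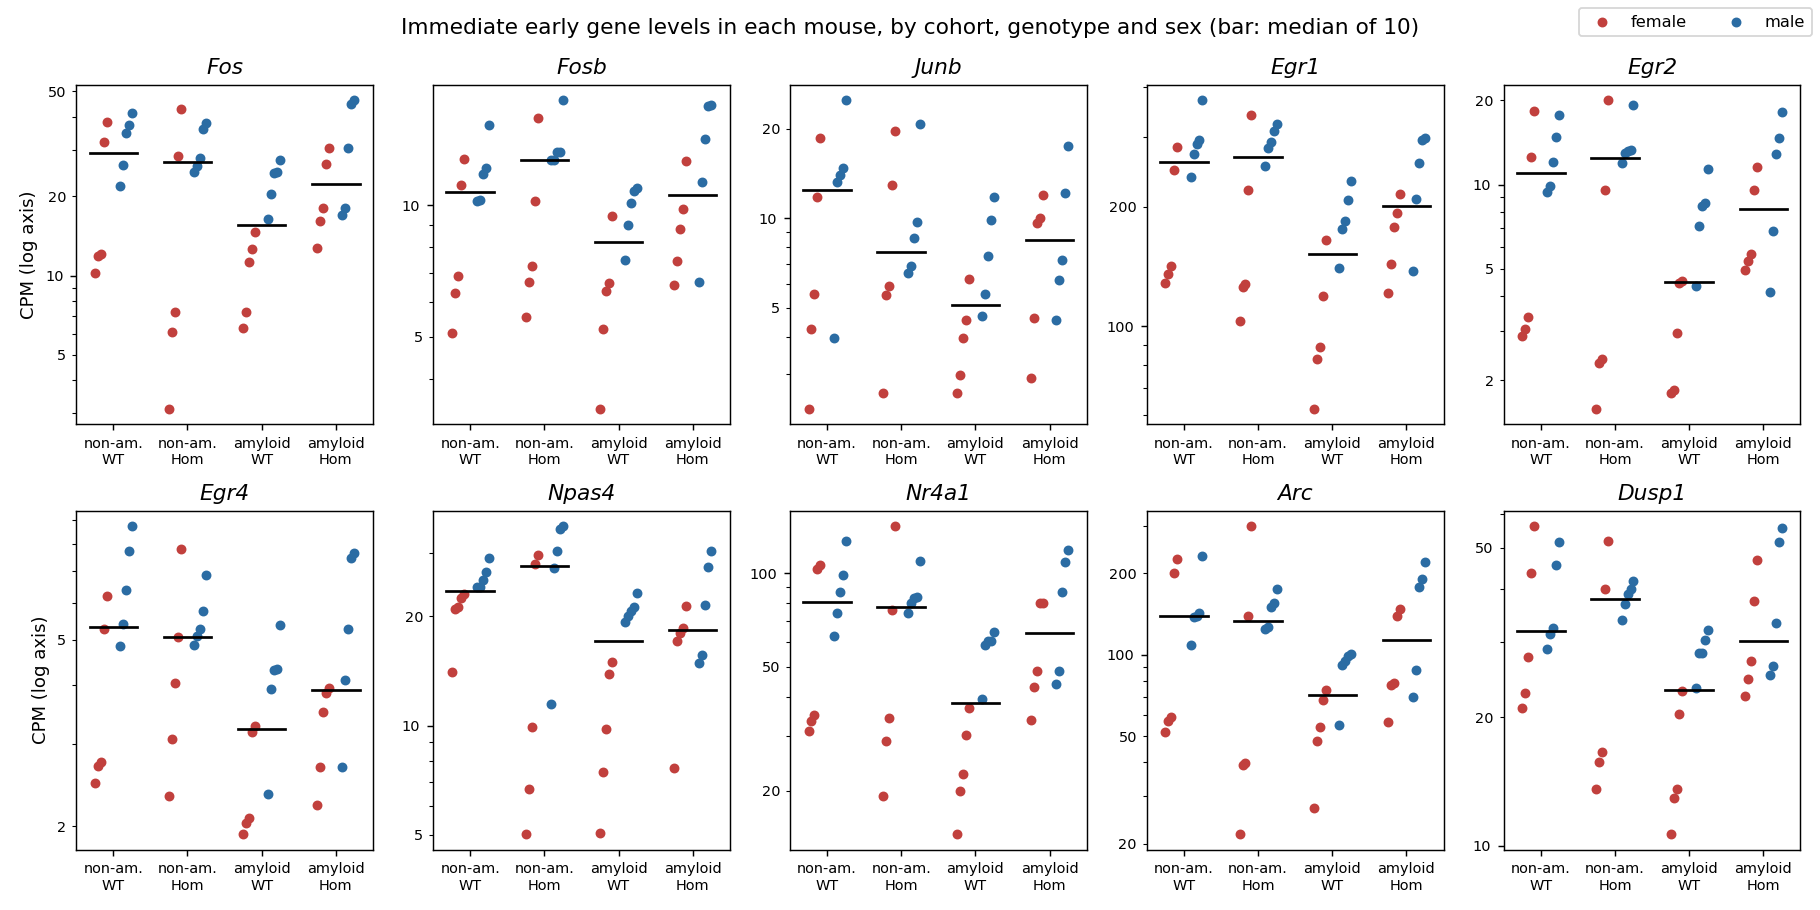
Level of each immediate early gene in CPM (log axis) in each of 40 mice, by cohort and genotype, with females in red, males in blue and a bar at the median of the 10 mice. In the amyloid cohort the Hom median lies above the WT median for all 10 genes while the groups overlap, and in the non-amyloid cohort low values come mainly from females.

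The first comparison asked whether the H157Y genotype went with different immediate early gene levels in mice with amyloid. All 10 members were higher in Hom than in WT in the amyloid cohort, by 0.31 to 0.81 in log2 with a median of 0.60, but 0 of 10 passed the test (edgeR quasi-likelihood, Benjamini-Hochberg adjusted p under 0.05 over all tested genes and absolute log2 fold change over 0.25). By the same rule 16 of 21253 genes passed (0.0753%). The study, at the same thresholds and without 1 library, reported many more genes in this contrast, most of them lower in Hom. At an unadjusted p under 0.05, 7 of the 10 members were higher in Hom, while 3.90% of all genes were, and DESeq2 and limma-voom called 0 members as well. The median over all genes was 0.00. The members are strongly correlated, so the 7 are not 7 separate observations.

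Among the AP-1 subunits, which pair to form a factor on the AP-1 site, *Fos* in amyloid WT mice had a lowest, median and highest value of 6.31, 15.5 and 27.4 CPM, and in amyloid Hom mice 12.7, 22.3 and 46.2 CPM. Of the Hom mice, 9 of 10 were above the WT median and 4 above every WT mouse. *Fos* differed by 0.66 (SE 0.27, p = 0.0260, adjusted p = 0.410). *Fosb*, one splice form of which yields a long-lived protein, had 3.42, 8.24 and 11 CPM in WT and 6.56, 10.6 and 16.9 CPM in Hom. Here 5 of the 10 Hom mice were above every WT mouse, and the log2 difference was 0.49 (SE 0.21, p = 0.0297, adjusted p = 0.432). *Junb*, a member of the Jun family, had 2.59, 5.13 and 11.8 CPM in WT and 2.90, 8.44 and 17.6 CPM in Hom, ranges that overlap over most of their length (log2 difference 0.54, SE 0.30, p = 0.0863, adjusted p = 0.578).

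The Egr genes encode zinc finger factors with a common GC-rich site. *Egr1* had a lowest, median and highest value of 62.1, 152 and 232 CPM in amyloid WT mice and 121, 201 and 298 CPM in amyloid Hom mice, with 4 WT mice below every Hom mouse (log2 difference 0.49, SE 0.22, p = 0.0335, adjusted p = 0.449). *Egr2* had 1.81, 4.50 and 11.4 CPM in WT and 4.14, 8.19 and 18.1 CPM in Hom, with 9 of 10 Hom mice above the WT median (log2 difference 0.76, SE 0.33, p = 0.0317, adjusted p = 0.443). *Egr4* had 1.92, 3.22 and 5.38 CPM in WT and 2.22, 3.90 and 7.66 CPM in Hom, and its log2 difference of 0.41 (SE 0.24, p = 0.0992, adjusted p = 0.592) was among the smallest.

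*Npas4*, a factor induced by calcium in neurons with few other inducers, showed the smallest difference, 0.31 (SE 0.25, p = 0.222, adjusted p = 0.674). Its values were 5.05, 17.1 and 23.2 CPM in amyloid WT and 7.63, 18.3 and 30.2 CPM in amyloid Hom, and its lowest Hom value came from replicate 19. *Nr4a1*, an orphan nuclear receptor, had 14.5, 38.2 and 64.5 CPM in WT and 33.9, 64.3 and 119 CPM in Hom. In *Nr4a1*, 5 Hom mice were above every WT mouse and 4 WT mice below every Hom mouse, with a log2 difference of 0.77 (SE 0.28, p = 0.0113, adjusted p = 0.286).

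*Arc*, which acts in dendrites on the removal of AMPA receptors from the synapse, showed the largest difference of the members, 0.81 (SE 0.26, p = 0.00470, adjusted p = 0.183). It had 27.2, 71.2 and 101 CPM in amyloid WT mice and 56.3, 113 and 220.3 CPM in amyloid Hom mice, and 5 Hom mice exceeded every WT mouse. *Dusp1*, a nuclear phosphatase that inactivates MAP kinases, had 10.6, 23.2 and 32.1 CPM in WT and 22.5, 30.3 and 55.8 CPM in Hom. *Dusp1* had 9 of 10 Hom mice above the WT median, and its log2 difference was 0.66 (SE 0.21, p = 0.00524, adjusted p = 0.196). Without replicate 19 the median over the members was 0.64, all 10 stayed higher in Hom, and the lowest adjusted p was 0.185.

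Within females of the amyloid cohort the 10 differences between Hom and WT ran from 0.38 to 1.27 in log2, with a median of 0.84. By the exact two-sided permutation test of 5 against 5 mice, whose smallest possible p is 0.00794, the unadjusted p of the members ran from 0.00794 (*Egr2*) to 0.151, and the share of all genes at such p was not computed. The differences without replicate 19 were 0.44 to 1.39 with a median of 0.95 (exact p 0.0159 to 0.206). Within amyloid males the differences were 0.02 to 0.65 with a median of 0.36 (exact p 0.119 to 0.913). In the non-amyloid cohort the same comparison went from -0.71 to 0.18 in females, 7 of 10 members being lower in Hom, with a median of -0.30 (exact p 0.222 to 0.770), and from -0.36 to 0.22 in males with a median of -0.01 (exact p 0.151 to 0.992). The difference between the sexes in the amyloid cohort was tested in itself: in 1 edgeR fit of genotype and sex, the Hom effect in females minus that in males was -0.05 to 0.74, with adjusted p of 0.817 to 0.979 and 0 of 21253 genes called (1124 at an unadjusted p under 0.05). Without replicate 19 it was 0.02 to 0.86, with adjusted p of 0.891 to 0.992 and 0 genes called (790 at an unadjusted p under 0.05). With sex as a covariate, the genotype test called 251 genes and no member, the nearest being *Nr4a1* (adjusted p = 0.0549), *Dusp1* (0.0602) and *Arc* (0.0821). Without replicate 19 that test called 200 genes and no member, with *Dusp1* at an adjusted p of 0.0582, *Nr4a1* at 0.0632 and *Arc* at 0.0845. In that test the *Junb* difference went from 0.61 with replicate 19 to 0.50 without it, while the differences of all other members rose.

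Microglia markers moved with this comparison in the other direction. All 6, among them *Cx3cr1*, *P2ry12* and *Tmem119*, were lower in amyloid Hom, 5 at an unadjusted p under 0.05 and 0 called, and their summed level was 527 to 1199 CPM in amyloid WT and 442 to 735 CPM in amyloid Hom, with none at 0. Of the 5 astrocyte markers, *Gfap* (-0.95, adjusted p = 0.0830) and *Aqp4* (-0.32, adjusted p = 0.326) were also lower at an unadjusted p under 0.05, while *Aldh1l1* (-0.11), *Slc1a3* (0.03) and *Gja1* (0.03) were not, and the list's median was -0.11. The study did call *Gfap* and microglial genes, among them *Cx3cr1*, *P2ry12* and *Tmem119*, lower in its amyloid Hom mice. The 5 choroid plexus markers were higher in amyloid Hom, the direction of the members, by 0.51 to 1.42 with a median of 1.02, 0 at an unadjusted p under 0.05, and their sum ran over 6.98, 17.7 and 387 CPM (lowest, median and highest) in amyloid WT and 9.21, 24.4 and 679 CPM in amyloid Hom. The medians without replicate 19 were -0.50 for microglia, -0.10 for astrocyte and 0.86 for choroid plexus markers. In bulk tissue, fewer cells of a type and less RNA per cell cannot be told apart. The neuron markers differed by -0.09 to 0.10 in log2, 0 of 5 at p under 0.05. Across the 40 mice, after subtracting group means, the summed microglia markers and the member mean had r = -0.31, and the summed choroid plexus markers had r = 0.06. Whether these cells had a part in the members' values was not tested.

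In the non-amyloid cohort the 10 members did not differ in 1 direction. Fitted differences between Hom and WT ran from -0.19 (*Junb*) to 0.17 (*Fosb*), with 2 higher and 8 lower in Hom and a median of -0.07. By edgeR, 0 of 10 were called (0.0329% of all genes were) and 0 had an unadjusted p under 0.05 (4.61% of all genes did), and DESeq2 and limma-voom also called 0. *Arc* had 51.8, 139 and 231 CPM in non-amyloid WT and 21.7, 133 and 299 CPM in non-amyloid Hom, the Hom group holding both the lowest and the highest mouse. *Fos* likewise had 10.2, 29.3 and 41.4 CPM in WT and 3.13, 27 and 43.0 CPM in Hom.

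Other members showed the same wide, overlapping ranges in this cohort. *Egr1* had 129, 259 and 370.1 CPM in WT and 103, 267 and 339 CPM in Hom, and *Dusp1* had 21, 31.9 and 56.2 CPM in WT and 13.5, 37.9 and 51.8 CPM in Hom. *Nr4a1* had 31.1, 80.7 and 126 CPM in WT and 19.3, 78.1 and 142 CPM in Hom. *Npas4* was the exception in WT, where 9 mice lay close together under a highest value of 29 CPM with replicate 15 below them at 14 CPM, while in Hom it ran from 5.01 to 35.5 CPM. *Junb* had 2.29, 12.5 and 25 CPM in WT and 2.58, 7.73 and 20.8 CPM in Hom, and *Egr2* had 2.89, 11 and 18.3 CPM in WT and 1.58, 12.5 and 20 CPM in Hom. *Fosb* (medians 10.7 CPM in WT and 12.7 CPM in Hom) and *Egr4* (medians 5.33 and 5.08 CPM) overlapped as widely.

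Whether the Hom effect differed between the cohorts was tested as an interaction over all 40 libraries. The estimate, the Hom effect in amyloid minus that in non-amyloid mice, was above 0 for all 10 members, from 0.31 to 0.90 with a median of 0.73. EdgeR called 0 of 10, as it did 0 of 21253 genes (0.00%), and 1 member had an unadjusted p under 0.05, *Dusp1* with 0.79 (SE 0.33, p = 0.0208, adjusted p = 0.425), where 10.3% of all genes did. DESeq2 called 27 genes and limma-voom 0, none of them members. With sex as a covariate, 12 genes and no member were called. Without replicate 19 the members' estimates were 0.37 to 0.96 with a median of 0.73, the lowest adjusted p was 0.543, and 0 genes were called.

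**Figure D2:**
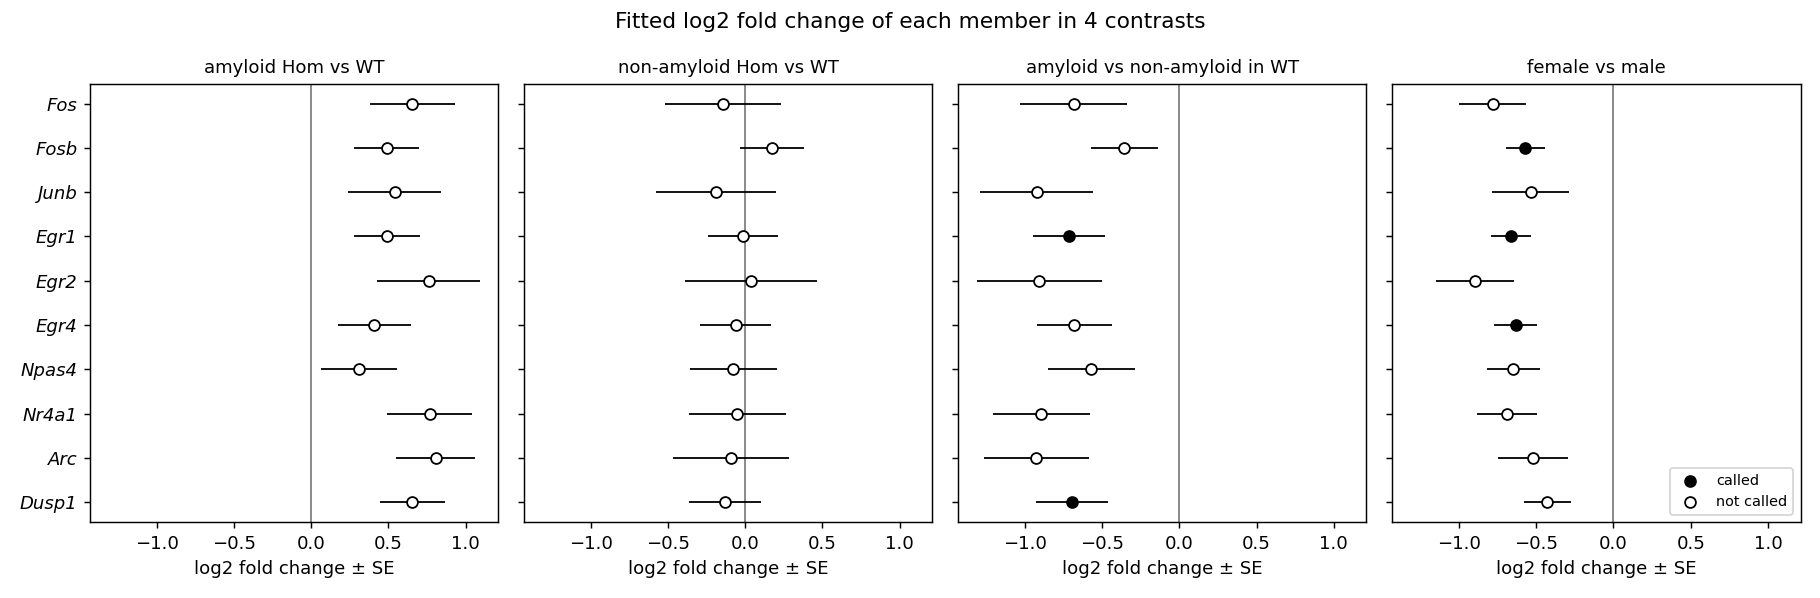
Fitted log2 fold change with its standard error for each member in 4 contrasts, with filled points for members that passed the test and a grey line at 0. All 10 points lie above 0 for amyloid Hom against WT with none filled, scatter around 0 for non-amyloid Hom against WT, and lie below 0 in the other 2 contrasts, where 2 and 3 are filled.

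Between the cohorts, the WT mice of the amyloid cohort had lower levels of all 10 members than the WT mice of the non-amyloid cohort, by 0.36 to 0.93 in log2 with a median of -0.71. EdgeR called 2 of 10, *Egr1* (-0.72, SE 0.23, adjusted p = 0.0417) and *Dusp1* (-0.70, SE 0.23, adjusted p = 0.0496), where 1.33% of all genes were called lower. At an unadjusted p under 0.05, 8 of 10 were lower, against 7.68% of all genes, and being correlated the 8 are not 8 separate observations. *Egr1* had 4 amyloid WT mice below every non-amyloid WT mouse and none above the non-amyloid median, and *Nr4a1* and *Npas4* showed the same counts. *Arc* (-0.93), *Junb* (-0.92), *Egr2* (-0.91) and *Nr4a1* (-0.89) had the largest fitted differences and were not called. The calls rest on few mice: leaving out any 1 of 12 WT libraries left 0 members called, and leaving out any 1 of 4 others gave 4. Those that gave 0 were non-amyloid WT replicates 1, 7, 18, 28, 29, 31 and 38 and amyloid WT replicates 5, 12, 26, 32 and 36, and those that gave 4 were non-amyloid WT replicates 15, 17 and 24 and amyloid WT replicate 22, while 14 gave 1, 7 gave 2 and 3 gave 3.

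Among Hom mice the same contrast gave 8 lower and 2 higher members in the amyloid cohort, from -0.21 to 0.11 with a median of -0.13, and 0 of 10 called by edgeR (6.56% of all genes were), 0 at an unadjusted p under 0.05 (22.6% of all genes), and 0 by DESeq2 and by limma-voom. Without replicate 19 the median was -0.05 and 0 members were called. The choroid plexus markers were higher in amyloid Hom than in non-amyloid Hom mice by 0.97 to 1.55, with a median of 1.4, 3 of 5 at an unadjusted p under 0.05 and 0 called. The contrasts of cohorts share their mice with the contrasts of genotype, the amyloid WT mice entering both with opposite sign. Marker levels moved between the cohorts too. All 6 microglia markers were called higher in amyloid WT mice (median 1.15 in log2), *Gfap* and *Aqp4* of the 5 astrocyte markers were called higher, and the 4 tested striatal markers had a median of -0.50. Their part in the members' difference was not tested, and the summed striatal markers had r = 0.16 with the member mean over the 40 mice. The neuron markers were lower by 0.05 to 0.13 with 0 of 5 at p under 0.05.

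Sex gave the clearest difference. All 10 members were lower in females, by 0.43 to 0.90 in log2 with a median of -0.64, and all 10 had an unadjusted p under 0.05, against 2.76% of all genes lower in females at that level. As the members are strongly correlated, the 10 are not 10 separate observations. EdgeR, with the 4 groups in the fit, called 3 of 10, where 22 genes or 0.104% were called lower in females. These were *Egr1* (-0.67, SE 0.13, adjusted p = 0.00571), *Fosb* (-0.57, SE 0.13, adjusted p = 0.0237) and *Egr4* (-0.63, SE 0.14, adjusted p = 0.0253). *Egr1* ran over 62.1, 139 and 339 CPM (lowest, median and highest) in the 20 females and 138, 265 and 370.1 CPM in the 20 males, with 10 females below every male and none above every male. *Fosb* ran over 3.42, 7.07 and 15.8 CPM in females and 6.65, 12 and 17.4 CPM in males, with 8 females below every male. *Egr4* ran over 1.92, 3.13 and 7.80 CPM in females and 2.35, 5.28 and 8.74 CPM in males, with 5 females below every male. *Fos* had 13 females below every male, with medians of 12.7 CPM in females and 26.9 CPM in males, although its own adjusted p was 0.0927 (log2 difference -0.78, SE 0.22).

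The sex difference had the same direction in each of the 4 groups for all 10 members. Its median was -0.93 in amyloid WT, -0.49 in amyloid Hom, -0.72 in non-amyloid WT and -0.85 in non-amyloid Hom. By the exact two-sided permutation test of 5 against 5 mice the members' unadjusted p ran from 0.00794 to 0.0476, from 0.0635 to 0.571, from 0.00794 to 0.508 and from 0.0476 to 0.571 in that order, and the share of all genes at such p was not computed. The amyloid Hom median was -0.39 without replicate 19 (exact p 0.135 to 0.667). The sex effect in the amyloid minus that in the non-amyloid cohort was -0.32 to -0.02 with adjusted p of 0.975 to 0.998 by edgeR. DESeq2 and limma-voom each called 7 members, but they called 164 and 229 of all genes in either direction, where edgeR called 76. Without non-amyloid Hom replicate 37, the female with the highest mean over the members of all mice, edgeR called 7 members. Fits that left out 1 library called 54 to 122 of all genes. Each cohort alone gave 0 members, among 51 genes in the amyloid and 26 in the non-amyloid cohort. Without replicate 19 the median was -0.61. Microglia markers were higher in females by 0.14 to 0.34, 5 of 6 at an unadjusted p under 0.05 and 0 called, *Gfap* was called higher by 0.47, the 5 erythroid markers differed by -0.63 to -0.39 with 1 of 5 at an unadjusted p under 0.05, and the part of these cells in the sex difference was not tested.

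Individual mice were low or high in nearly all members at once. In non-amyloid WT, females 15, 17 and 24 were among the 3 lowest of the group for 10, 9 and 10 members, and in non-amyloid Hom, females 6, 14 and 20 for all 10. The other females of these groups were not low: replicates 1, 38 and 11 had member means 0.70, 0.76 and 0.44 above the mean of all mice in log2, and replicate 37 had 1.1, the highest of the 40, where replicate 6 had -1.54, the lowest. In amyloid WT all 5 females were below the mean of all mice, at -0.53 to -1.46, and replicates 12 and 26 were among the 3 lowest in 10 of 10 members. In amyloid Hom the males 10 and 25 were among the 3 highest in 10 of 10 members, and replicates 16, 19 and 30 among the 3 lowest in 9, 9 and 8. Replicate 19 was among the 3 highest in the 1 member left, *Junb*.

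**Figure D3:**
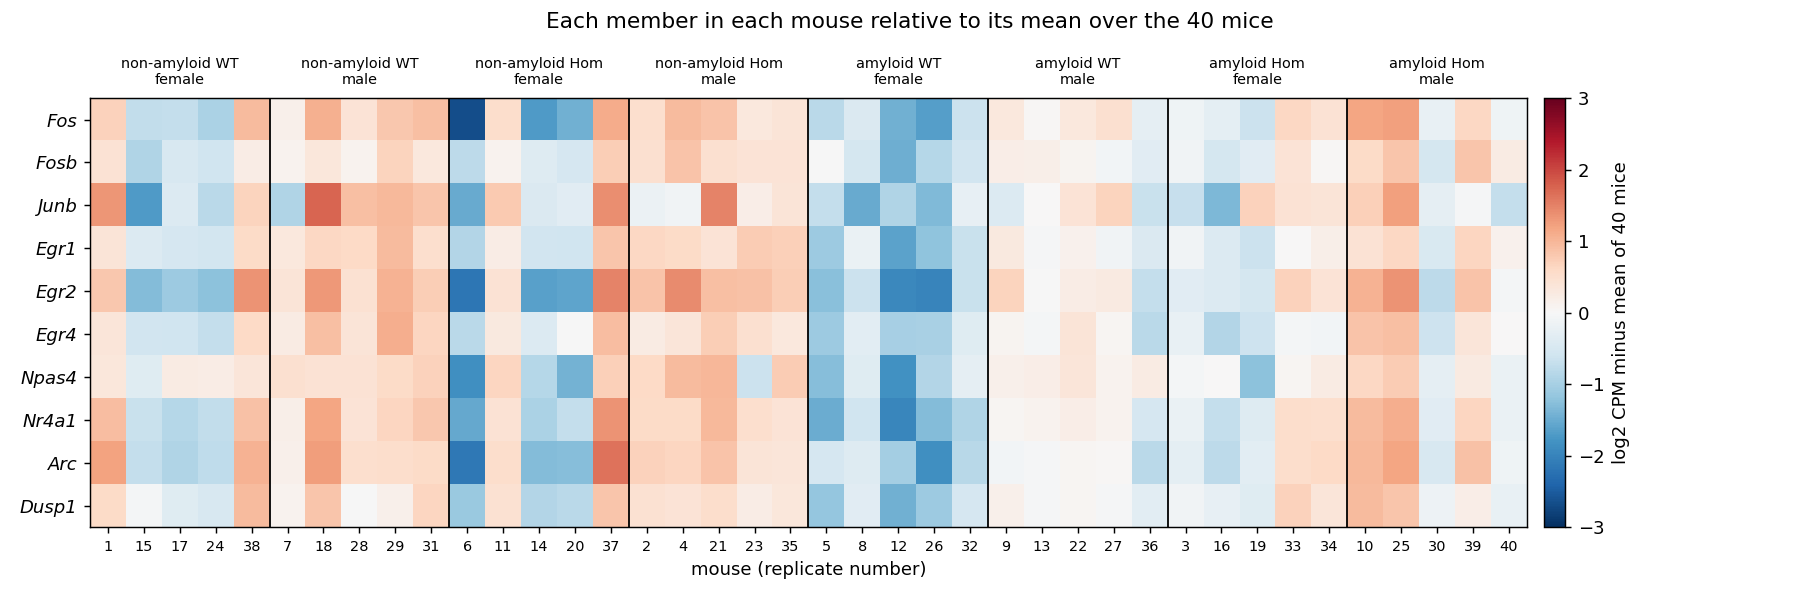
Log2 CPM of each member in each mouse minus its mean over the 40 mice, from blue (lower) to red (higher), with mice grouped by cohort, genotype and sex. Columns are mostly of 1 color from top to bottom, with the bluest column in replicate 6 and red columns in replicates 37 and 25.

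The members rose and fell together over the 40 mice after the mean of each group was subtracted. Over the 45 pairs Pearson's r was 0.52 to 0.97 with a median of 0.86, and Spearman's rho was 0.57 to 0.96 with a median of 0.84. The largest p of any pair, from 100000 permutations within groups, was 0.00022 for r and 1e-04 for rho after adjustment over the 45 pairs, and most pairs had 1e-05, the smallest p the permutations can give. Leaving out the 2 mice farthest from the median gave a median r of 0.85 (0.41 to 0.97). Within single groups of 10 mice the median r was 0.87 in non-amyloid WT, 0.93 in non-amyloid Hom, 0.82 in amyloid WT and 0.88 in amyloid Hom. In the 20 females alone it was 0.85, in the 20 males alone 0.74, with sex subtracted too 0.83, and without replicate 19 it was 0.86.

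*Fos* and *Egr2* were the closest pair (r = 0.97), followed by *Fos* with *Arc* and *Egr2* with *Nr4a1* (both 0.95). *Junb* and *Npas4* were the least alike (r = 0.52, and 0.22 within amyloid Hom). Without replicate 19, which had the lowest *Npas4* value of amyloid Hom, the lowest r of any pair was 0.59. Against the mean of the other 9 members, *Nr4a1* had the highest r, 0.98, and *Junb* (0.75) and *Npas4* (0.80) the lowest. Library depth had r = 0.25 with the member mean, given as a description.

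**Figure D4:**
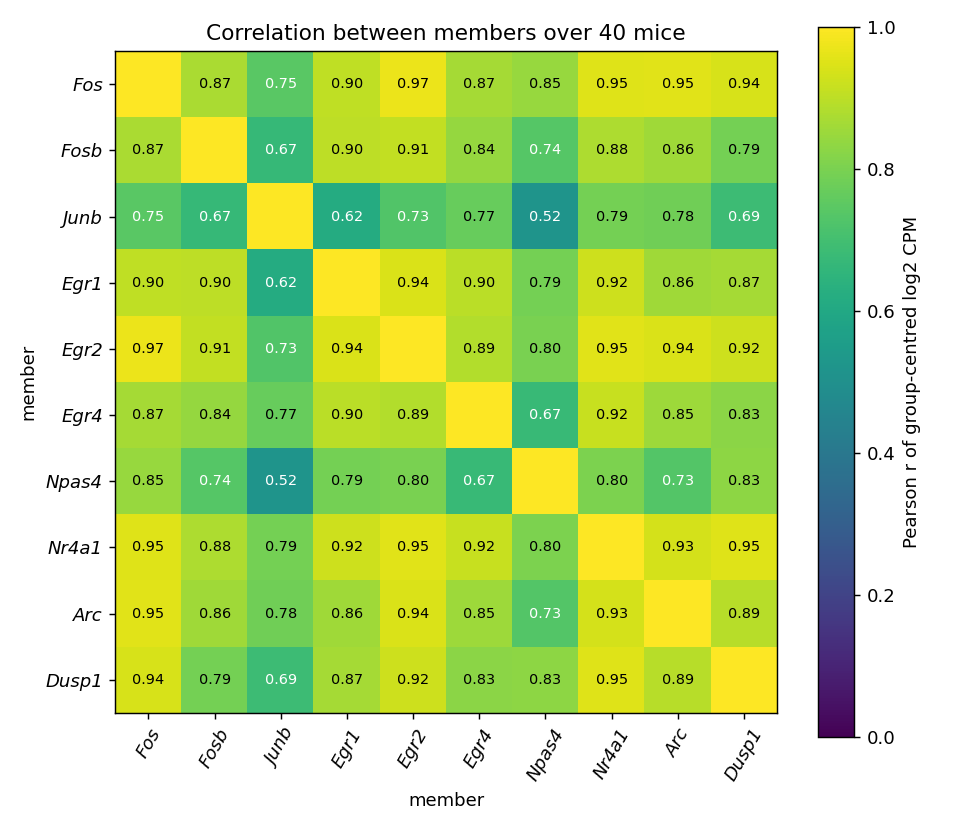
Pearson r of group-centred log2 CPM over 40 mice for each pair of members, from dark (0) to yellow (1), with the value in each square. All squares off the diagonal lie between 0.52 and 0.97, and the rows of *Junb* and *Npas4* are the darkest.

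Outside the members, the 10 genes with the highest r with the member mean, among 15188 with a mean of at least 1 CPM, were *1700016P03Rik* (0.90), *Dusp5* (0.90), *Sik1* (0.89), *Btg2* (0.87), *Ier2* (0.85), *Fosl2* (0.84), *Trib1* (0.84), *Dusp6* (0.82), *Arl4d* (0.82) and *Nr4a3* (0.79). *1700016P03Rik* is a noncoding transcript whose span holds *Mir212* and *Mir132* in the GENCODE annotation, *Dusp5* and *Dusp6* are phosphatases of ERK kinases, and *Sik1* is a kinase that acts on CREB coactivators. The same 10 genes had r of 0.79 to 0.92 without replicate 19. Of all genes compared, 147 had r above 0.5 and 50 below -0.5. These values describe likeness over 40 mice, and a shared library can add to them.

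A list of other rapid primary response genes followed the members in part. Of 28 tested genes, 22 had r above 0.5 with the member mean (median 0.62). In amyloid Hom against WT, 0 were called, 11 were higher (3.90% of all genes were) and 1 lower at an unadjusted p under 0.05, and the median was 0.24. The largest differences were *Apold1* at 0.74 (adjusted p = 0.234), *Sik1* at 0.73 (adjusted p = 0.120) and, in the other direction, *Atf3* at -0.72 (adjusted p = 0.114), which had the lowest p of the list. Without replicate 19, 14 were higher and 1 lower at that level, with a median of 0.28. In females, *Fosl2* (-0.55, adjusted p = 0.00571) and *Nr4a3* (-0.73, adjusted p = 0.00571) were called lower, and 13 of 28 were lower at an unadjusted p under 0.05, against 2.76% of all genes. Between the WT groups, 2 of 28 were called lower in the amyloid cohort, *Per1* (-0.86) and *Arl4d* (-0.54). Another 3 were called higher, *Atf3* (2.12), *Maff* (1.14) and *Zfp36* (0.77). Over all genes 1.33% were called lower, and 1689 of 21253 were called in either direction.

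Genes induced later or acting at the synapse moved little with the members. Of 21 tested, 3 had r above 0.5 (*Gpr3*, *Tiparp* and *Plk3*), the median r was 0.20, and 0 were called in amyloid Hom against WT, with 2 higher and 1 lower at an unadjusted p under 0.05 and a median of 0.02. *Bdnf*, a neurotrophin, had r = 0.13 with the member mean, *Homer1*, a scaffold of the synapse, 0.35, and *Nptx2*, a secreted pentraxin, 0.14. *Nptx2* was at -0.58 in amyloid Hom against WT (adjusted p = 0.345).

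Of 22 genes that carry the signal to the immediate early genes, such as *Creb1*, *Camk4* and *Grin1*, 1 had r above 0.5, *Srf*, which is itself an inducible gene (0.63), and 0 were called in either genotype contrast. The 6 constitutively expressed transcription factors had a median r of 0.19 and 0 calls in either genotype contrast. The 10 genes induced by glucocorticoids, among them *Fkbp5* and *Tsc22d3*, had a median r of 0.05 and 0 calls in either genotype contrast, with 2 higher and 1 lower at an unadjusted p under 0.05 in the amyloid cohort. DESeq2 and limma-voom counts were not computed for these lists.

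**Figure D5:**
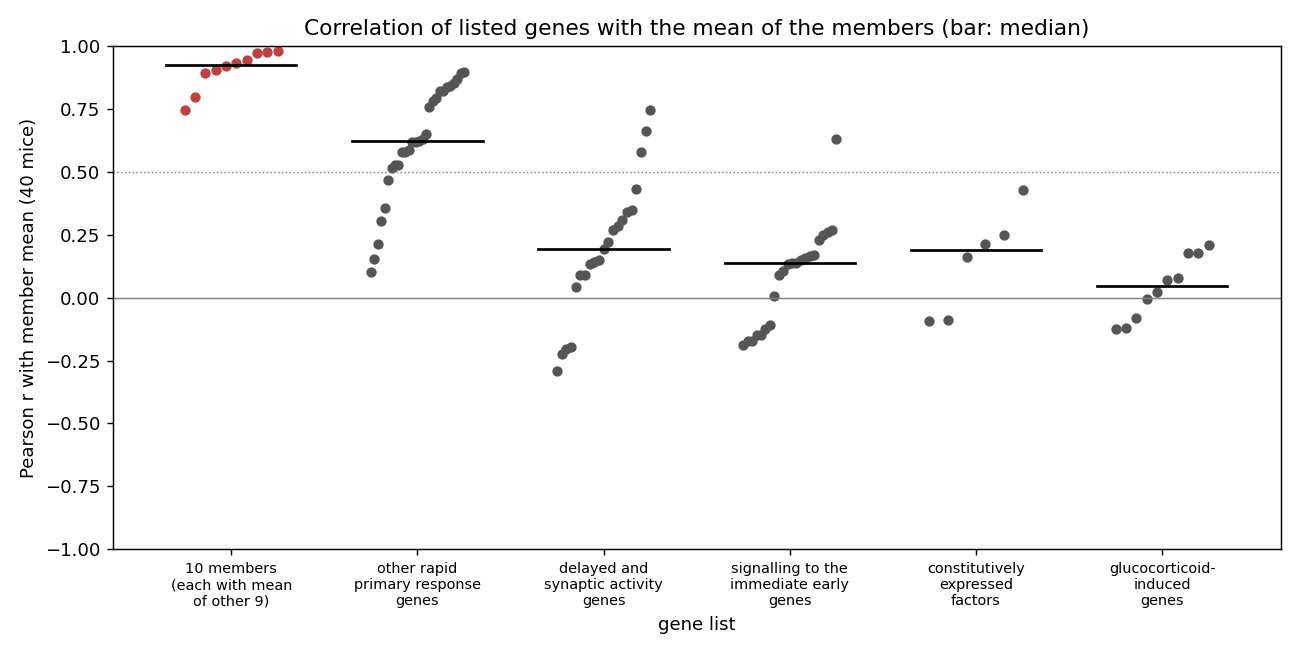
Pearson r with the member mean over 40 mice (vertical axis, no unit) for each member against the mean of the other 9 and for each gene of 5 lists, with a bar at the median of each. The members lie at 0.75 to 0.98, other rapid primary response genes spread from near 0.1 to 0.90, and the other 4 lists have medians of 0.20 or less.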

How the data were processed

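Libraries were made from poly(A) RNA of cortex, 1 per mouse, and sequenced by the study. The authors deposited raw counts of reads per gene, 43346 genes by 40 libraries, on mm10. The submitters' processing notes name STAR 2.5.2b and featureCounts 1.5.1, while the paper names another aligner, so the aligner is uncertain. The strand setting is not given in the sources used here. The filter kept 21253 genes that reached 10 counts in 4 or more libraries. The deposited counts were normalized by TMM and tested in edgeR 4.0.16 (glmQLFit, glmQLFTest; R 4.3.3), each cohort alone for Hom against WT, and all 40 libraries in 1 fit of the 4 groups for the rest, with a sex term for the sex contrast. Calls needed an absolute log2 fold change over 0.25 and a p under 0.05 after Benjamini-Hochberg adjustment over the tested genes. CPM were TMM-scaled, and log2 CPM used a prior count of 2. The members and gene lists were chosen with earlier results of these data known, and interactions with sex and further fits without replicate 19 were added after seeing the data. Genes named by rule were the members, the 10 closest genes by r, list genes called in a genotype contrast or the interaction (there were none), and *Trem2*. All other genes given with values were chosen after their values were seen. Scripts were tested on simulated data. All 40 libraries were kept, also replicate 19, which is probably the amyloid Hom female that the study left out. Mice are separate animals, and nothing in the sources gives a batch. Alternatives were other normalizations, DESeq2 1.42.0, limma-voom (limma 3.58.1) with quality weights, other filters, robust dispersion, a sex covariate, and leaving out each library.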

Additional observations from a re-analysis of the deposited data

Results flagged for a closer look

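Of 40 sets of 10 mice (10 members in 4 groups) tested for a single value far from the rest, 2 passed, both for *Npas4*, and chance gives about 1 in 20 such sets. In non-amyloid WT, replicate 15, a female, had the lowest value, and its gap to the next mouse took 0.550 of the range in log2 CPM. In amyloid Hom, replicate 19, also a female and the library that stands apart, had the lowest value, with a gap of 0.487 of the range. Both exceeded Dixon's 95% critical value for 10 mice. Without replicate 19 the *Npas4* difference between amyloid Hom and WT was 0.40 in place of 0.31, and it was not called in either case.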

How the results depend on the processing

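Amyloid Hom against WT kept all 10 members higher in Hom and 0 called under 11 alternatives and on leaving out each of 20 libraries, with *Arc* at 0.80 to 0.87 and an adjusted p of 0.0821 to 0.289 under the alternatives. The count of members called lower in amyloid WT than in non-amyloid WT, 2, became 1 with upper-quartile normalization and with library size alone, 5 with DESeq2, 4 with sex as a covariate, and 0 with limma-voom, with no filter on low counts and with robust dispersion, and 0 to 4 on leaving out 1 library. Over all genes and both directions, that contrast called 1689. Under these settings it called 1571 to 1851 (1851 with DESeq2, 1693 with sex as a covariate), and 1424 to 1805 on leaving out 1 library. For sex, the count of 3 became 7 with DESeq2 and with limma-voom, 0 in each cohort alone, and 2 to 7 on leaving out 1 library. The median correlation between members was 0.74 in males alone, where it was 0.86 in all. With limma-voom, non-amyloid Hom against WT turned for *Junb* (0.033), *Egr1* (0.0045), *Egr4* (0.11) and *Nr4a1* (0.025), and the amyloid against non-amyloid contrast in Hom for *Egr2* (0.16), *Npas4* (0.12), *Nr4a1* (0.083) and *Arc* (0.24); with sex as a covariate, *Egr2* in non-amyloid Hom against WT was -0.00053. On leaving out 1 library, non-amyloid Hom against WT ran from -0.21 to 0.063 for *Nr4a1*, -0.33 to 0.036 for *Arc*, -0.11 to 0.17 for *Egr2*, -0.085 to 0.081 for *Egr1*, -0.15 to 0.054 for *Egr4*, -0.18 to 0.042 for *Npas4* and -0.38 to 0.016 for *Junb*. In the contrast of cohorts in Hom, the ranges were -0.16 to 0.21 for *Arc*, -0.13 to 0.042 for *Fosb*, -0.018 to 0.25 for *Fos*, -0.0062 to 0.19 for *Dusp1* and -0.20 to 0.082 for *Nr4a1*. All of these were uncalled, and the cause was not tested. Over all genes, the calls in amyloid Hom against WT, 16, were 8 with no filter on low counts, 66 with filterByExpr, 251 with sex as a covariate, 300 with DESeq2, 612 in 1 fit of all 40 libraries, and 6 to 204 on leaving out 1 library (204 without amyloid WT replicate 13); those for sex, 76, were 26 to 229 and those for the interaction, 0, reached 27 with DESeq2. No paired analysis was possible because the labels give no litter or other pairing of mice, and likeness between littermates was not modelled. Depth limits the lowest members most: the smallest count of any member in any library was 114, for *Egr4* in replicate 19.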
